A study of Drosophila melanogaster with 6 samples.

Results

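The T-box genes bi, H15, mid, Doc1, Doc2, Doc3 and org-1 of Drosophila melanogaster were followed in eye and antennal discs of larvae in the third instar. They are 7 of the 17753 gene identifiers in the expression tables and were taken by name, with earlier results of these data known. The eye disc and the antennal disc are joined epithelial sacs that give rise to the adult eye, the antenna and much of the head. RNA-seq libraries of polyadenylated RNA were made from 3 eye disc samples and 3 antennal disc samples. All came from larvae of genotype yw;+;+, which carry mutations of the pigment genes yellow and white and no transgene, and each sample, a biological replicate by the labels, pooled 30 discs that had been parted by hand.

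T-box genes encode transcription factors that bind DNA through a conserved domain, the T-box, and act in the patterning and fate of many tissues. bi (bifid, also called optomotor-blind) is a target of the BMP ligand Dpp in the wing disc and is needed for the optic lobes of the brain. The paralogues mid (midline) and H15 act in ventral fate of the leg, downstream of the Wnt ligand Wg, and in the embryonic heart. The Dorsocross genes Doc1, Doc2 and Doc3 are redundant factors of the amnioserosa, dorsal ectoderm and heart of the embryo, and org-1 sets the identity of certain muscles.

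The genes lie at 4 loci, given here in dm6 coordinates counted from 1. H15 (FBgn0016660, 2L, 5404280 to 5416593, plus strand) and mid (FBgn0261963, 2L, 5461639 to 5467610, plus strand) are separated by 45.045 kb. Doc3 (FBgn0035954, 3L, 9005196 to 9007249, plus strand), Doc2 (FBgn0035956, 3L, 9012686 to 9019246, minus strand) and Doc1 (FBgn0028789, 3L, 9041375 to 9045042, plus strand) form a cluster of 39.8 kb. bi (FBgn0000179, X, 4412856 to 4485647, plus strand) and org-1 (FBgn0021767, X, 8447691 to 8455069, minus strand) stand apart on the X chromosome. The authors' table counts reads over whole gene spans, introns included, so overlap between spans matters for the counts. The spans of H15, mid, the 3 Doc genes and org-1 overlap no other indexed gene, and their estimated counts were whole numbers, within 0.001, in all 6 libraries. The span of bi lies wholly within that of the noncoding RNA gene lncRNA:CR32773 on the minus strand, and its estimated counts were whole in 0 of the 6 libraries.

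Estimated counts summed to between 17583649 and 29093995 per library, the fewest in eye disc replicate 2, and a floor of 3 counts equalled 0.1003 to 0.192 CPM (counts per-million after TMM scaling). It covers counting error only. Of 8 eye disc marker genes all 8 were called for that tissue, and of 10 antennal disc marker genes all 10 were called for theirs (quasi-likelihood test of edgeR, p adjusted by the Benjamini-Hochberg method, threshold 0.05). The markers were chosen with earlier results of these data known, so these calls are no independent check of the tissues. The tissues were not free of each other's markers: the summed level of the antennal markers was 138 to 154 CPM in eye disc libraries, against 930 to 1093 CPM in antennal disc libraries. The gene ct alone held 59.4 to 79.9 CPM of that sum in eye disc. The summed level of the eye markers was 241.5 to 300.1 CPM in antennal disc libraries, against 1852 to 2082 CPM in eye disc libraries. In antennal disc, toy held 67.3 to 87.8 CPM of that sum and ato 61.9 to 62.7 CPM. ato was only 1.29-fold higher in eye disc.

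Most of the T-box genes were higher in antennal disc. The pair mid and H15 and the Doc genes were higher there, by 21.3-fold for H15, 7.59-fold for mid, 4.28-fold for Doc1, 3.80-fold for Doc2 and 1.92-fold for Doc3. bi was 1.47-fold higher in eye disc, and org-1 was near the detection floor in both tissues. Of the 6 genes that passed the filter on low counts, the same test called 5 higher in antennal disc and 1 higher in eye disc and left 0 uncalled. Over all 9901 genes tested, 26.4% were called, 11.7% higher in antennal disc and 14.6% higher in eye disc. The median log2 fold change, eye over antennal disc, was -2.01 for these 6 genes and 0.00 for all genes. The tissues were apart in their lowest to highest values for each of the 6, with antennal disc above eye disc for 5 and below it for 1. Over all tested genes the ranges were apart for 45.6%, 22.2% with antennal disc above and 23.4% with eye disc above. Without eye disc replicate 2, which had the fewest counts, the same 5 and 1 were called, whereas without antennal disc replicate 1, and likewise without antennal disc replicate 2, the calls were 5 and 0, the lost one being bi. In bulk tissue, more cells that express a gene and more RNA per cell cannot be told apart.

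**Figure D1:**
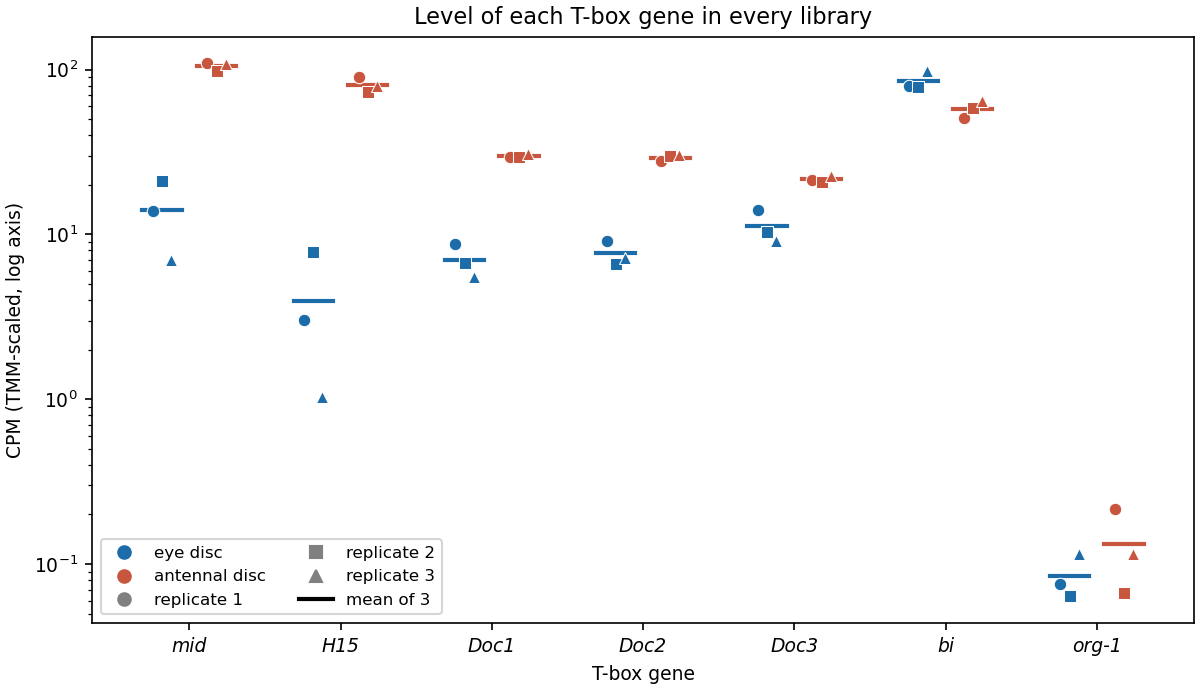
CPM of each T-box gene (log axis) in every library, with eye disc in blue and antennal disc in red, marker shapes for replicate numbers and a bar at the mean of 3 libraries. All 3 antennal disc libraries lie above all 3 eye disc libraries for mid, H15, Doc1, Doc2 and Doc3, the order is the opposite for bi, and org-1 stays at or below 0.215 CPM.

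H15 had the largest difference. Its level was 3.01, 7.86 and 1.03 CPM in eye disc replicates 1, 2 and 3 and 90.4, 72.9 and 79.8 CPM in antennal disc replicates 1, 2 and 3. The lowest antennal disc library was thus far above the highest eye disc library, while the eye disc libraries differed strongly among themselves. Eye disc averaged 3.97 ± 3.51 CPM (SD, n = 3) and antennal disc 81.0 ± 8.82 CPM, a log2 fold change of -4.41 ± 0.72 (SE; edgeR, adjusted p = 0.0108). Of the 1161 genes called higher in antennal disc, 11 had a larger difference on the log2 scale. Without eye disc replicate 2 the log2 fold change was -5.32 (adjusted p = 0.00134).

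Its paralogue mid was the T-box gene with the highest level per length in antennal disc. The antennal disc libraries held 109, 98.0 and 108 CPM of mid, and the eye disc libraries 13.8, 21.1 and 7.01 CPM. Again no eye disc library reached the antennal range, and the eye disc libraries kept the order seen for H15, with replicate 2 highest and replicate 3 lowest. Antennal disc averaged 105 ± 6.19 CPM and eye disc 14.0 ± 7.04 CPM, with a log2 fold change of -2.92 ± 0.40 (edgeR, adjusted p = 0.00451), and 37 of the 1161 genes called higher in antennal disc had a larger one.

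H15 and mid shared their highest eye disc library with most antennal markers. Taken as a share of the antennal disc mean, H15 stood at 3.72%, 9.70% and 1.28% in eye disc replicates 1, 2 and 3, and mid at 13.2%, 20.1% and 6.67%. Of the 10 antennal disc marker genes, 8 were also highest in eye disc replicate 2, with 1 highest in replicate 1 and 1 in replicate 3. Their median share was 7.55%, 10.4% and 6.51% in eye disc replicates 1, 2 and 3. Eye disc replicate 2 exceeded replicate 3 by 7.60 times for H15 and 3.01 times for mid. The same ratio was 15.02 for H2.0, 4.35 for fd96Cb, 3.65 for fd96Ca, 2.46 for unc-4, 2.21 for Dll, 1.61 for btd, 1.37 for disco-r, 1.23 for ss, 1.14 for disco and 0.744 for ct. It was thus larger for H15 than for 9 of the 10 markers. The share of H15 lay below that of 9 of the 10 markers in replicate 1 and in replicate 3, where the one below it, H2.0, had 3 counts and 1 count, at or under the floor. In replicate 2 it lay below 6 markers and above 4. The summed level of 8 muscle and adepithelial cell markers, among them twi, Mef2 and Mhc, was also highest in eye disc replicate 2, at 211, 497 and 336 CPM in eye disc replicates 1, 2 and 3 and 521 to 683 CPM in antennal disc. In eye disc replicate 2, Act57B held 152 CPM of that sum and twi 2.75 CPM. Only zfh1 of the list was not highest there, at 71.0, 50.6 and 55.7 CPM in eye disc replicates 1, 2 and 3. No marker of that list was at 0 in all libraries. The part of carried-over antennal tissue or of muscle cells in these values was not tested.

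**Figure D2:**
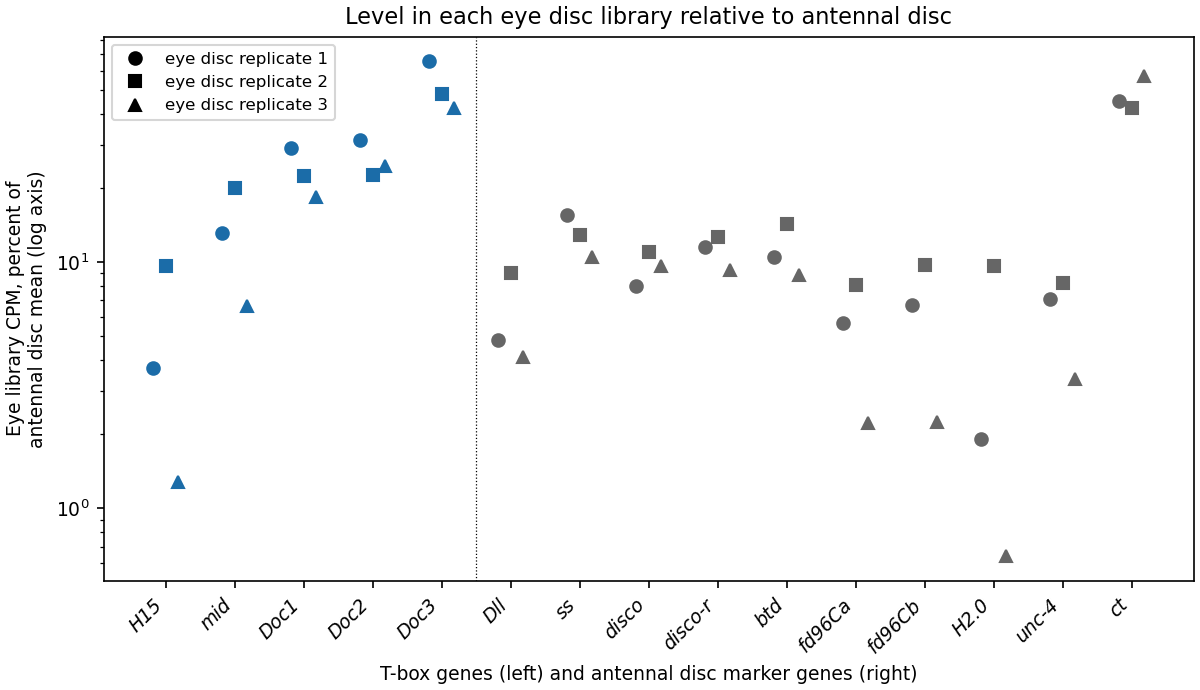
Level in each eye disc library as a percentage of the antennal disc mean (log axis), for 5 T-box genes in blue and 10 antennal disc marker genes in grey, with marker shapes for the eye disc replicates. Replicate 2 is highest for H15, mid and 8 of the 10 markers, whereas replicate 1 is highest for the 3 Doc genes.

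The Doc genes were higher in antennal disc with little spread between antennal disc libraries. Doc1 was at 29.5, 29.5 and 30.8 CPM in antennal disc and at 8.73, 6.71 and 5.51 CPM in eye disc. Doc2 was at 27.7, 29.8 and 30.2 CPM in antennal disc and at 9.19, 6.64 and 7.197 CPM in eye disc. Both genes thus fell into well separated ranges, and eye disc replicate 1, not replicate 2, was the highest eye disc library. Doc1 averaged 6.98 ± 1.62 CPM in eye disc against 29.9 ± 0.767 CPM, a log2 fold change of -2.10 ± 0.17 (edgeR, adjusted p = 0.000434). Doc2 averaged 7.67 ± 1.34 against 29.3 ± 1.33 CPM, with a log2 fold change of -1.93 ± 0.14 (edgeR, adjusted p = 0.000244).

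Doc3 had the smallest log2 fold change of the cluster. It was at 21.2, 20.8 and 22.7 CPM in antennal disc and at 14.1, 10.4 and 9.15 CPM in eye disc. The ranges were still apart. The means were 11.2 ± 2.57 and 21.6 ± 1.03 CPM, eye disc first, a log2 fold change of -0.94 ± 0.17 (edgeR, adjusted p = 0.00871). As a share of the antennal disc mean, the eye disc libraries held 65.3%, 48.3% and 42.4% of Doc3, against 29.2%, 22.4% and 18.4% of Doc1. In eye disc replicate 2 the share of Doc1, Doc2 and Doc3 lay at 22.4%, 22.7% and 48.3%, above that of every antennal marker but ct (42.4%), which only Doc3 exceeded there.

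bi was the T-box gene called higher in eye disc. Its level was 79.0, 78.9 and 97.7 CPM in eye disc replicates 1, 2 and 3 and 51.2, 58.5 and 64.5 CPM in antennal disc replicates 1, 2 and 3. It was thus present at a similar order of magnitude in both tissues, with no overlap of their ranges. The means were 85.2 ± 10.8 and 58.0 ± 6.68 CPM, a log2 fold change of 0.55 ± 0.12 (edgeR, adjusted p = 0.0180). The call was lost with antennal disc replicate 1 left out (log2 fold change 0.46, edgeR, adjusted p = 0.0582), with antennal disc replicate 2 left out (0.55, adjusted p = 0.0750) and under limma-trend on log2(TPM + 1) (0.24, adjusted p = 0.625). lncRNA:CR32773, whose span contains bi, was at 11.1, 12.1 and 11.5 CPM in eye disc and 5.20, 3.81 and 3.37 CPM in antennal disc (log2 fold change 1.48, edgeR, adjusted p = 0.00324). Reads that could belong to either gene are shared out between them by the counting, and the strand setting is not given in the sources used here. Their sum, an alternative added after seeing the data, was 96.8 ± 10.8 against 62.2 ± 5.76 CPM, a log2 fold change of 0.64 ± 0.10 (edgeR, adjusted p = 0.00623). The span of lncRNA:CR32773 overlaps 12 genes, bi and CG3556 among them, and CG3556 had a log2 fold change of 3.61. The sum can thus hold reads from genes other than bi, and their part in it was not tested.

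Glial and neuronal markers moved with tissue in the same direction as bi. The summed level of 8 glial markers was 888 to 1101 CPM in eye disc and 577 to 655 CPM in antennal disc, with calls toward eye disc for 7 and no call for 1, and repo, a transcription factor of glia, was at 42.8 ± 3.92 against 4.47 ± 0.972 CPM. The summed level of 7 neuronal markers was 754 to 1200 CPM against 96.8 to 112 CPM, with calls toward eye disc for 6 and no call for 1. The shares called over all tested genes were 14.6% toward eye disc and 11.7% toward antennal disc. Gs2, the glial marker without a call, held 144, 341 and 112 CPM of the glial sum in eye disc replicates 1, 2 and 3. The part of glia and neurons in the difference of bi was not tested.

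org-1 was barely detected. The libraries held 2, 1 and 3 estimated counts in eye disc replicates 1, 2 and 3 and 6, 2 and 3 in antennal disc replicates 1, 2 and 3, at most 0.115 CPM and 0.215 CPM respectively. The ranges of the tissues overlapped, and 5 of the 6 libraries were at or under the floor of 3 counts. The gene did not pass the filter, and a difference was not detectable at this depth. Over all tested genes, 11.7% were called toward antennal disc and 14.6% toward eye disc. Among muscle identity genes that act with org-1 elsewhere, of which 5 were tested, 0 were called toward eye disc, 2 toward antennal disc and 3 in neither direction (median log2 fold change -0.12). The 2 were lbl, a homeobox gene (4.07 ± 2.21 against 63.8 ± 9.85 CPM), and twi, a mesodermal bHLH factor (1.96 ± 0.780 against 24.0 ± 1.54 CPM, -3.63). byn, the T-box gene of the hindgut, was at 0 counts in all 6 libraries, and its span is wholly covered by another gene.

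**Figure D3:**
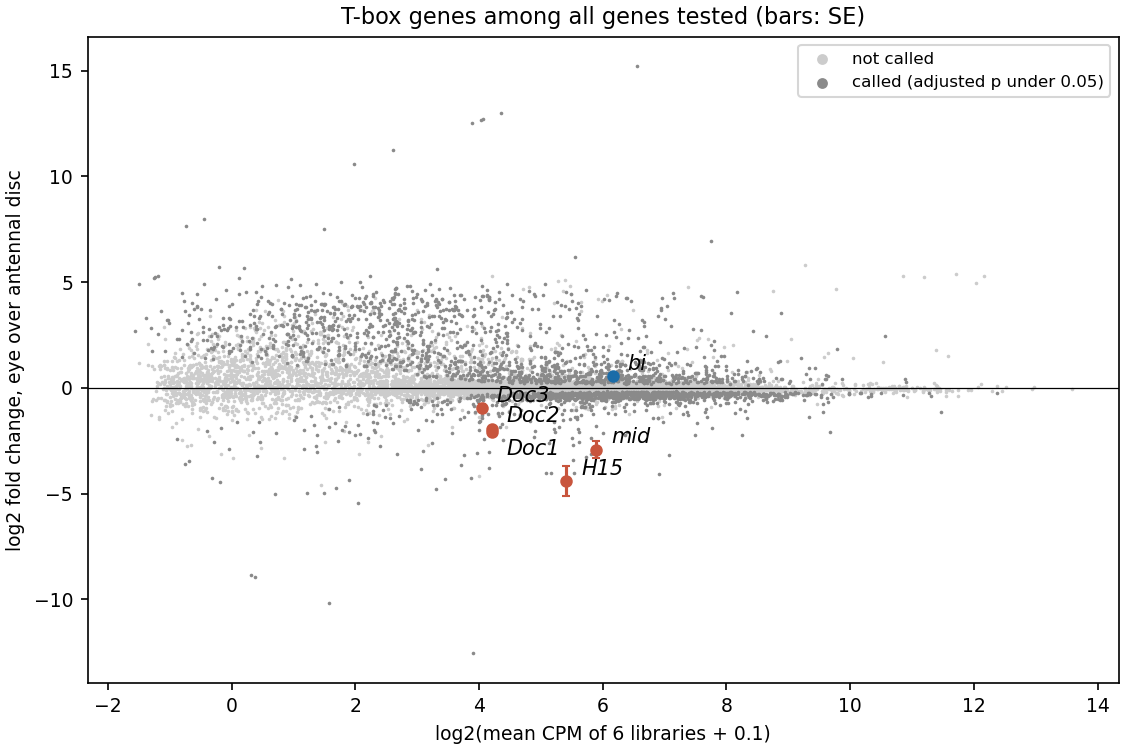
Log2 fold change (eye over antennal disc) against mean level, log2(mean CPM + 0.1), for the 9901 genes tested, with called genes in dark grey and the 6 tested T-box genes named, with bars for the SE. H15 and mid lie at -4.41 and -2.92, the Doc genes between -2.10 and -0.94, and bi at 0.55.

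Levels were compared between genes per kilobase of the longest annotated transcript, since the deposited TPM divides by the span, which for bi is 72792 bases against a longest transcript of 5613 bases. In antennal disc the order was mid (36.0 ± 2.12 CPM per kb), H15 (27.7 ± 3.01), Doc1 (19.6 ± 0.503), Doc2 (15.04 ± 0.686), Doc3 (12.9 ± 0.618), bi (10.3 ± 1.19) and org-1 (0.0387 ± 0.0221). The ranges of no 2 neighbours in this order overlapped. In eye disc the order was bi (15.2 ± 1.93 CPM per kb), Doc3 (6.72 ± 1.54), mid (4.79 ± 2.41), Doc1 (4.58 ± 1.06), Doc2 (3.95 ± 0.687), H15 (1.36 ± 1.20) and org-1 (0.0249 ± 0.00778). On this scale bi was above all others there with no overlap, whereas Doc3, mid, Doc1 and Doc2 overlapped from each to the next. The counts cover introns, so this scale can overstate bi, as the TPM, divided by the span, can understate it. By deposited TPM bi was in place 5 in eye disc (2.42 TPM, against 12.3 TPM for Doc3 in place 1), so its place in eye disc depends on the length used. Without eye disc replicate 2, mid moved from place 3 to place 5 in eye disc.

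Expressed as shares of the summed level per kilobase of the 7 genes, the T-box genes differed between the tissues in their parts. bi made up 36.3%, 37.0% and 52.8% in eye disc libraries and 7.37%, 8.98% and 9.18% in antennal disc libraries. mid made up 12.2%, 19.0% and 7.27% in eye disc and 30.2%, 28.9% and 29.6% in antennal disc. Doc1 moved less, from 10.9% to 14.8% in eye disc and from 15.6% to 16.7% in antennal disc. As shares of the summed TPM of the 7 genes, bi made up 7.14%, 7.81% and 13.1% in eye disc and 1.38%, 1.68% and 1.71% in antennal disc. The direction was thus the same by both lengths, and the size of the share was not. Shares add up to the whole, so a fall of 1 gene raises the others.

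The proportion of paralogues within a library does not depend on depth or scaling. Estimated counts of mid exceeded those of H15 by 4.57, 2.68 and 6.67 times in eye disc replicates 1, 2 and 3, and by 1.21, 1.34 and 1.36 times in antennal disc. Their longest transcripts are of nearly equal length, 2920 and 2926 bases. By counts the pair was thus close to balance in antennal disc and dominated by mid in every eye disc library. The counts cover introns, and the span is 12314 bases for H15 and 5972 bases for mid. By deposited TPM, divided by the span, mid averaged 41.85 against 15.42 TPM for H15 in antennal disc. The balance there thus depends on the length used. The log2 ratio was 2.12 ± 0.66 (SD, n = 3) against 0.38 ± 0.09, and their difference of 1.74 was the largest of the 4 ratios compared (exact two-sided permutation test, p = 0.1, adjusted p = 0.133). That p of 0.1 is the smallest that 3 against 3 libraries can give.

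Within the Doc cluster, Doc3 changed its place by estimated counts. It had 1.61, 1.55 and 1.66 counts for each count of Doc1 in eye disc, and 0.721, 0.704 and 0.738 in antennal disc. Doc3 was therefore the Doc gene with the most counts in all 3 eye disc libraries and the one with the fewest in all 3 antennal disc libraries. The counts cover spans of 2054 bases for Doc3, 3668 for Doc1 and 6561 for Doc2. By deposited TPM, divided by the span, Doc3 was the highest of the 3 in antennal disc too, at 26.51 TPM. Doc1 averaged 19.78 TPM and Doc2 10.57 TPM there. The place of Doc3 in antennal disc thus depends on the length used. The log2 ratio of Doc3 to Doc1 was 0.68 ± 0.05 against -0.47 ± 0.03, a difference of 1.16, and that of Doc3 to Doc2 was 0.54 ± 0.17 against -0.44 ± 0.07, a difference of 0.97 (exact two-sided permutation test, p = 0.1 and adjusted p = 0.133 for each). For Doc2 to Doc1 the log2 ratio was 0.15 ± 0.21 against -0.03 ± 0.05 and the ranges overlapped (exact permutation test, p = 0.2, adjusted p = 0.2).

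**Figure D4:**
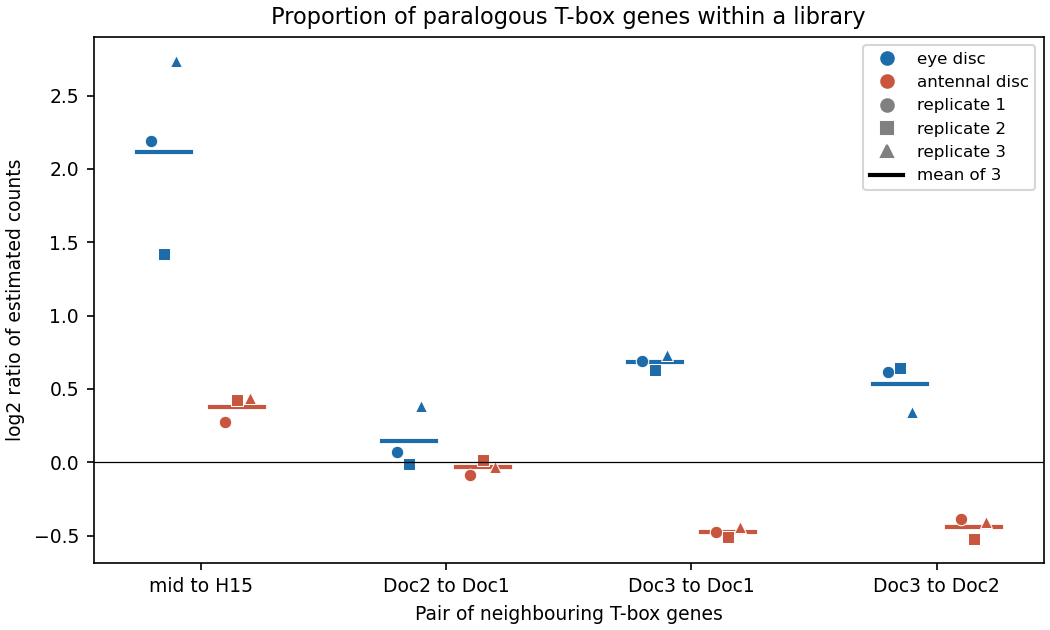
Log2 ratio of estimated counts of T-box paralogues within each library, with eye disc in blue, antennal disc in red and bars at the mean of 3. The ratio of mid to H15 lies between 1.42 and 2.74 in eye disc and between 0.27 and 0.44 in antennal disc, and both ratios with Doc3 are above 0 in eye disc and below 0 in antennal disc.

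Most annotated neighbours of the T-box genes were near 0 or not called. Between H15 and mid lie 5 noncoding RNA genes, all at or below 0.368 CPM in every library, and the nearest genes outside the pair, lncRNA:CR44745 and lncRNA:CR45287, were at or below 0.115 CPM. In the Doc cluster, CG5194 lies between Doc3 and Doc2 and averaged 0.0808 against 0.244 CPM. CG5087, which ends 2.63 kb before Doc3, averaged 38.99 CPM against 37.4 CPM (eye against antennal disc, log2 fold change 0.06, edgeR, adjusted p = 0.508). Argk2, 2.40 kb beyond Doc1 and named for arginine kinase, was at 0.778 against 0.988 CPM (-0.32, adjusted p = 0.684). Neither gene beside the Doc cluster was thus called. Beside bi, CG3556 averaged 42.1 against 3.44 CPM (log2 fold change 3.61, edgeR, adjusted p = 0.000578), and it too lies inside lncRNA:CR32773. Beside org-1, CG12123 was at 11.04 against 11.7 CPM (-0.08, edgeR, adjusted p = 0.661), and CG32713 had at most 0.0766 CPM.

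**Figure D5:**
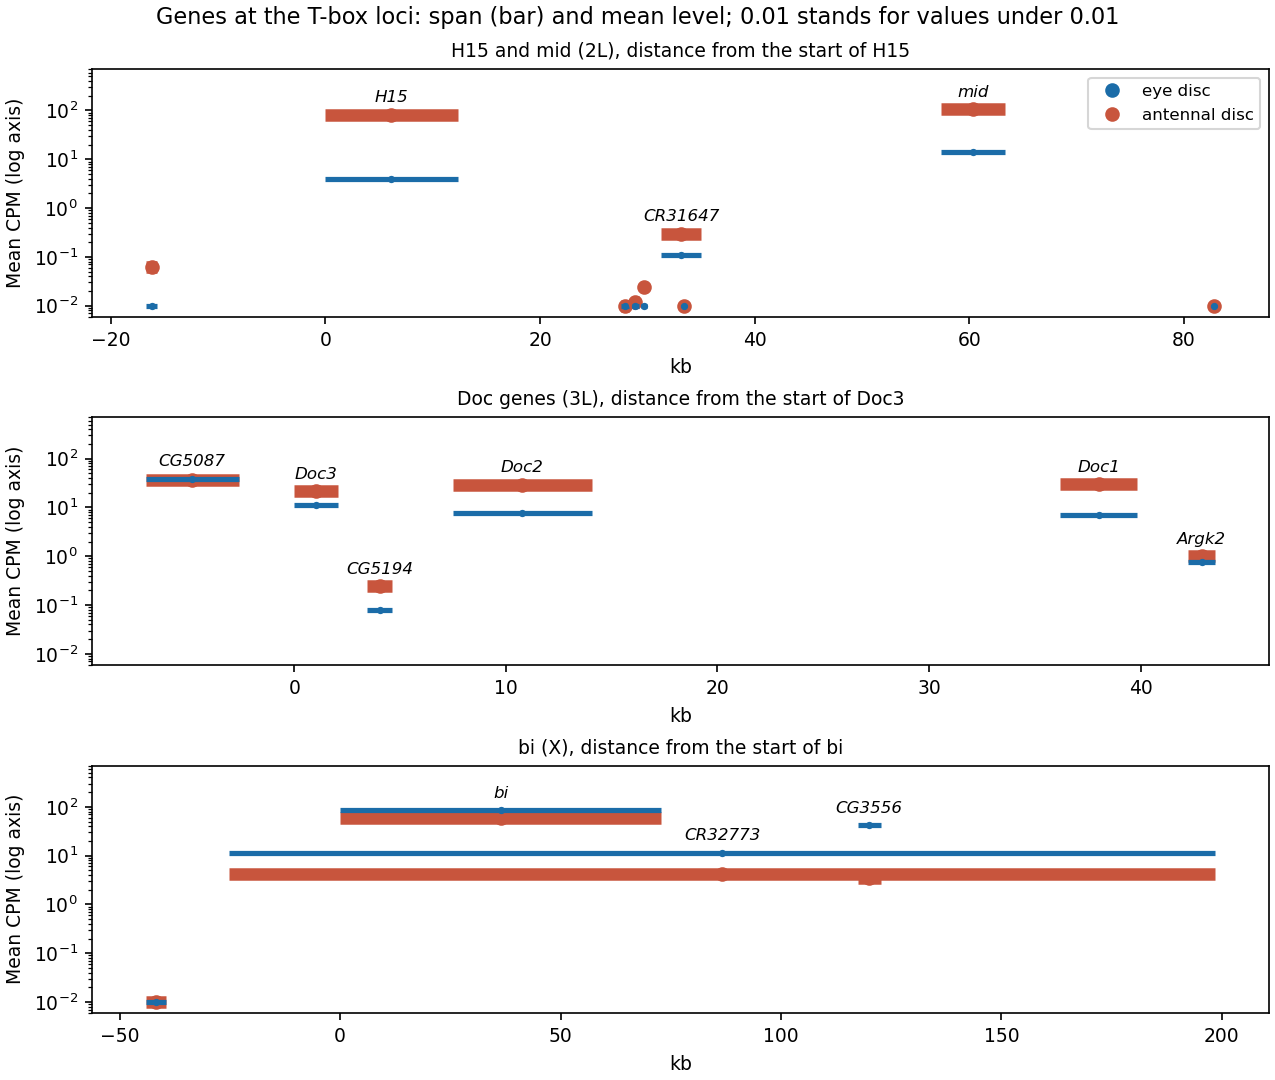
Mean CPM (log axis) of the genes at 3 T-box loci, drawn over their spans in kb from the start of the first T-box gene, with antennal disc as thick red bars and eye disc as thin blue bars. The T-box genes stand above the near-silent noncoding genes between H15 and mid, and the bars of CG5087 and Argk2 on either side of the Doc cluster nearly coincide.

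Genes with the most similar profiles were found by the Euclidean distance between gene-centred log2 CPM over the 6 libraries, as a description. Nearest to H15 were H2.0 (distance 0.58), fd96Cb (0.93) and CG8172 (1.08). For mid they were the zinc finger gene Sp1 (0.60), a paralogue of btd in appendage formation, CG14301 (0.66) and CG32512 (0.68). Sp1 was at 9.07, 19.4 and 6.51 CPM in eye disc replicates 1, 2 and 3 and at 99.9 ± 19.5 CPM in antennal disc. Its order in eye disc was that of mid, but it was picked for its nearness to mid over these same libraries. Nearest to Doc1 were bnb (0.20), Tsp, which encodes thrombospondin (0.22), and CG12880 (0.29), and nearest to Doc2 were the pair-rule gene opa (0.25), CG12880 (0.27) and Muc91C (0.33). Doc3 was closest to CG17919 (0.23), nemy (0.29) and CG31121 (0.29), and bi to CG2909 (0.13), CG2991 (0.14) and CG31125 (0.16). No T-box gene was among the 3 nearest genes of another.

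Genes of the pathways that act with T-box genes were counted by list. Over all tested genes, 11.7% were called toward antennal disc and 14.6% toward eye disc, the shares to set beside each list. Of 14 Dpp pathway genes and targets, 13 were tested, with 7 called toward antennal disc, 2 toward eye disc and 4 in neither direction (median log2 fold change -0.24, against 0.00 for all genes). The ligand dpp was at 50.8 ± 1.98 against 75.5 ± 6.30 CPM (eye against antennal disc, log2 fold change -0.57, edgeR, adjusted p = 0.00294), and the receptor tkv at 243 ± 13.6 against 407 ± 15.7 CPM (-0.74). The largest difference was in vg, a wing selector (-2.51). The 2 genes higher in eye disc, as bi was, were the spalt zinc finger genes salm (92.3 ± 9.43 against 59.3 ± 6.90 CPM, log2 fold change 0.64) and salr (121 ± 6.62 against 94.5 ± 5.51 CPM, 0.36), which are Dpp targets in the wing. Dad (-0.55) and bs (-0.22) of the same list were, like vg, called toward antennal disc. The repressor brk, not called, was at 88.5 ± 5.49 against 103 ± 9.53 CPM.

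Of 14 Wg pathway genes tested, 5 were called toward antennal disc, 0 toward eye disc and 9 in neither direction (median log2 fold change -0.16). Calls over all tested genes were 11.7% toward antennal disc and 14.6% toward eye disc. The largest differences of the Wg list were in ligands. Wnt6 was at 18.2 ± 1.89 against 94.4 ± 4.48 CPM (log2 fold change -2.38), and wg at 29.1 ± 6.50 against 136 ± 7.63 CPM (-2.22). A further Wnt ligand, Wnt10, was not called (0.969 ± 0.984 against 2.16 ± 0.228 CPM). The feedback inhibitors Notum (-1.01) and nkd (-0.43) and the coreceptor arr (-0.24) were the others called (edgeR, adjusted p of 0.0246 or less). The intracellular effectors arm (1468 ± 100 against 1258 ± 36.6 CPM) and pan (122.8 ± 31.8 against 100.2 ± 9.37 CPM) were not called. Of 6 Hedgehog and compartment genes, 4 were called toward antennal disc and 2 in neither direction (median -0.67), with the posterior homeobox genes inv at 18.5 ± 3.61 against 79.0 ± 6.44 CPM and en at 23.1 ± 4.98 against 65.1 ± 5.31 CPM.

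Genes that act beside Doc, mid and H15 in the heart and dorsal ectoderm of the embryo lay mostly on the other side. Of 8 tested, 5 were called toward eye disc, 1 toward antennal disc and 2 in neither direction (median log2 fold change 0.56). Among all tested genes, 14.6% were called toward eye disc and 11.7% toward antennal disc. The FGF ligand ths was at 63.4 ± 5.96 against 17.1 ± 3.56 CPM (log2 fold change 1.89), and the GATA factors srp and pnr differed by 0.99 and 0.89. The member higher in antennal disc was tup, a LIM homeobox gene (21.0 ± 2.69 against 28.2 ± 2.83 CPM, -0.43). The cardiac homeobox gene tin was at 0.0766 ± 0.101 against 0.305 ± 0.201 CPM and, like Hand, was too low to test. srp also marks hemocytes, and 5 of 7 hemocyte markers were called toward eye disc and 2 in neither direction, at summed levels of 1096 to 1261 CPM against 687 to 767 CPM; their part in this list was not tested.

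Of 16 proximodistal genes of leg and antenna, 11 were called toward antennal disc, 4 toward eye disc and 1 in neither direction (median log2 fold change -1.19). The largest differences were in Dll (-4.08) and btd (-3.16), and the 4 higher in eye disc were dac (2.76), B-H2 (2.33), B-H1 (2.00) and rn (1.21). H15 and mid thus lay at -4.41 and -2.92 beside -4.08 for Dll and -3.12 for Sp1 of this list, each on the scale of log2 fold changes. Of the remaining marker lists, 2 of 4 brain neuroblast genes were called toward eye disc and 2 in neither direction, 4 of 4 tracheal genes had no call, and of 8 muscle and adepithelial markers 2 were called toward antennal disc, 1 toward eye disc and 5 in neither direction. These small lists stand beside 26.4% of all tested genes called in either direction.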

How the data were processed

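Libraries were grouped by the tissue in their titles. The authors' deposited tables hold estimated counts and TPM for each gene, with the columns that kallisto writes, as seen in their headers. Per the submitters' processing notes the tools were kallisto, FastQC and bedtools (no versions given) and the build was dm6. The listed length equals the whole gene span for 99.3% of 12561 genes with more than 1 exon block, so deposited TPM understates genes with long introns, bi above all. A further region file per sample lists none of the T-box genes and was not used.

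Estimated counts were rounded to whole numbers, filtered with filterByExpr, scaled by TMM and tested by quasi-likelihood in edgeR 4.0.16 under R 4.3.3, with robust fitting and tissue as the sole term. A call is a Benjamini-Hochberg p under 0.05, adjusted over all 9901 tested genes. SE values are the size of the log2 fold change over the square root of F. Symbols and positions came from Ensembl's dm6 annotation. The ratio of paralogues was log2 of counts plus 0.5, with exact permutation tests in scipy 1.17.1. Alternatives used DESeq2 1.42.0 and limma 3.58.1. The edgeR step was tested on simulated data.

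Named genes were the T-box genes, the 3 nearest profiles of each, the flanking genes, and from each pathway list the 2 called genes with the largest change; marker genes and others named from the lists were chosen after their values were seen. T-box genes, lists and markers were chosen with earlier results of these data known. Med, of the Dpp list, was not analysed here. Samples of equal replicate number deviated together from their tissue means (correlation across genes 0.415, 0.308 and 0.242 for numbers 1, 2 and 3). Between unequal numbers the correlation was -0.43 to 0.08. The numbers were thus taken to pair the samples from these data, not from the labels. The main fit and the main permutation tests leave this pairing out, and a fit with that block was an alternative.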

Additional observations from a re-analysis of the deposited data

How the results depend on the processing

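H15, mid, Doc1, Doc2 and Doc3 kept their direction and their calls in all 14 alternatives, with highest adjusted p of 0.0387, 0.0223, 0.00421, 0.00313 and 0.0440 (edgeR, DESeq2 or limma). With 1 library left out, log2 fold changes ranged from -5.32 to -3.95 for H15, -3.33 to -2.61 for mid, -2.30 to -1.96 for Doc1, -2.08 to -1.83 for Doc2, -1.15 to -0.82 for Doc3 and 0.43 to 0.63 for bi. bi kept its call in 11 of 14 alternatives. For bi these include its sum with lncRNA:CR32773, added after seeing the data, in place of the fit on genes without overlap. The replicate block changed no call of a T-box gene (bi 0.55, H15 -4.64) and called 1614 genes toward eye disc and 1397 toward antennal disc, against 1449 and 1161. limma-trend on log2(TPM + 1), with a median log2 fold change over all genes of -0.18 against 0.00, called 858 and 344 genes, so that eye disc genes were 71.4% of calls against 55.5%. It put bi at 0.24 and called 0 T-box genes higher in eye disc; the cause was not tested. Among genes without overlap, which leave out bi, 737 and 615 were called, and 0 T-box genes were higher in eye disc. With 1 library left out, 919 to 1462 and 520 to 1117 genes were called, the fewest without antennal disc replicates 2 (919 and 596) and 3 (947 and 520), and 0 to 1 T-box genes were higher in eye disc. Every paralogue ratio kept its direction in 9 alternatives, with differences of 1.43 to 2.09 for mid to H15, 1.13 to 1.18 for Doc3 to Doc1, 0.92 to 1.07 for Doc3 to Doc2 and 0.06 to 0.26 for Doc2 to Doc1. With the block, the exact sign-flip permutation test can give no p under 0.25. By the deposited TPM, Doc3 was in place 1, Doc1 in place 3 and bi in place 5 in eye disc, and Doc3 in place 2, H15 in place 4 and Doc2 in place 5 in antennal disc. With 1 eye disc library left out, mid took places 3 to 5 and Doc1 places 3 to 4. Depth limited org-1.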
